A study of Mus musculus with 12 samples.

Results

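The liver of female mice of the strain KK was compared with that of C57BL/6J females, 3 mice and 3 arrays per strain. These 6 arrays were chosen by their titles, "Liver KK F" and "Liver B6 F", out of 12 in the series. The other 6, from 3 males of each strain, entered the fit and were used to ask whether the strain difference differed between the sexes. Every mouse was 8 weeks old and fed chow, spent 3 days in a cage of its own and was fasted for 4 hours. The large liver lobe was taken after perfusion with PBS, and 1 mouse supplied each array, a whole-transcript design from Affymetrix. No group carried a transgene, a deletion made by the study or a drug. The strain label reads KK/HIJ in one field and KK/J in another, and the stage of the oestrous cycle is given in neither. All values are log2 expression values, on which 1 is a doubling, and every difference is KK minus C57BL/6J.

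KK mice are inbred, tend to become obese and resist insulin, and C57BL/6J is a common laboratory strain. The mouse liver is a strongly sex-biased organ. Growth hormone is secreted in pulses in males and more continuously in females, and the transcription factor STAT5B carries this pattern into hepatocytes. BCL6, a repressor more abundant in male liver, and CUX2, one more abundant in female liver, act beside it, and so does HNF6. Many of the genes they control encode cytochrome P450 enzymes, steroid dehydrogenases, sulfotransferases, transporters and urinary proteins. The liver also makes fatty acids, cholesterol, bile acids, lipoproteins, glucose and most plasma proteins.

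The median value of the 6 female arrays lay between 5.91 and 6.00 and the interquartile range between 2.74 and 2.97, widest in KK female 1 and C57BL/6J female 3. Across probe sets, arrays of the same female group correlated at 0.993 to 0.996, and female arrays of different strain at 0.982 to 0.987. KK female 3 and KK male 3 correlated at 0.9931, above the 0.9927 of KK females 1 and 2. The sex labels were borne out by 3 Y-linked genes, which lay between 3.79 and 4.66 in the females (mean 4.19, taken below as the background level) and between 5.87 and 8.30 in the males. Nnt, of which C57BL/6J carries a deletion, had values of 9.98, 9.87 and 9.80 in KK females and of 8.76, 8.79 and 8.87 in C57BL/6J females (difference 1.08, adjusted p = 2.51e-06). H2-Ea, the other gene chosen to check the strain labels, was not called by limma (difference -0.07, adjusted p = 0.722). The 15 hepatocyte markers had a median level of 13.14 in KK and 13.12 in C57BL/6J females. Of them limma called 2 higher (Tat and Apob) and 1 lower (Apoa1), 20% against 6.85% of all genes with a symbol. Without KK female 1, 0 were called higher.

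Limma, which was fitted to all 12 arrays with Benjamini-Hochberg adjustment over all probe sets, called 1378 of 21212 probe sets (6.50%) different between KK and C57BL/6J females at an adjusted p under 0.05. Of these, 675 (3.18%) were higher in KK and 703 (3.31%) lower. The smallest difference called was 0.22, and the median call was 0.53 higher or -0.53 lower. A difference of at least 2-fold was found for 212 calls (0.999%), 104 higher (0.490%) and 108 lower (0.509%), and 187 of these had a gene symbol. Differences of over 16-fold were few: 4 higher and 5 lower. In 5 of the 104 the C57BL/6J mean, and in 10 of the 108 the KK mean, was no higher than the 4.66 that a Y-linked gene reached in a female. The largest decrease of all, -5.92, was that of a probe set without a gene symbol, from 9.90 to 3.98. For 4364 probe sets (20.6%) KK females lay entirely on one side of the C57BL/6J females, and 1377 of the 1378 calls were among them (6.49%). The number of calls rested on single arrays less at large differences. It was 905 without KK female 1, and 402 higher ones remained without C57BL/6J female 2, but the count of at least 2-fold calls stayed within 1.5 times of 212 without any one array. Calls of single genes given below without a remark on arrays held, at an adjusted p under 0.05, without any one of the 12. The genes Adgrf1, Pla2g7 and Gm6614 were not examined in this way. The livers were whole tissue, so fewer cells of a type and less RNA per cell cannot be told apart.

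**Figure D1:**
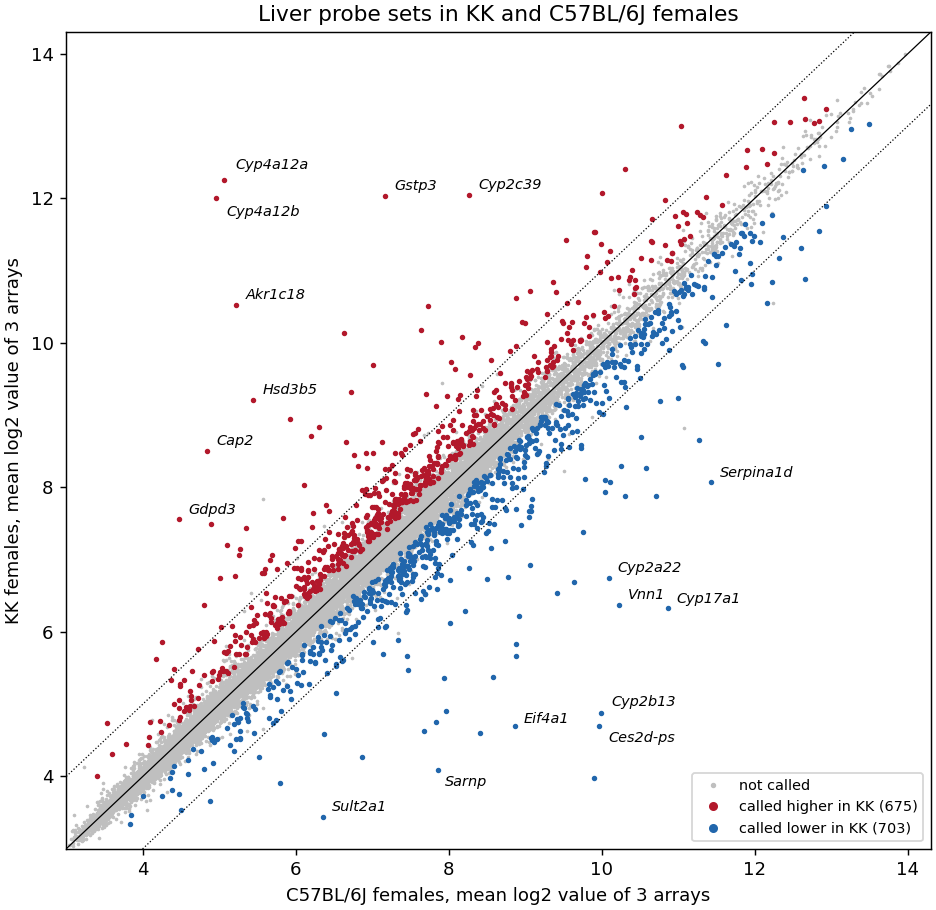
Each point is 1 of 21212 probe sets, with its mean log2 value over 3 C57BL/6J females on the x axis and over 3 KK females on the y axis. Red points are the 675 called higher in KK and blue points the 703 called lower, the solid line marks equal values and the dotted lines a 2-fold difference. Most points lie on the solid line, and Cyp4a12a and Cyp4a12b stand farthest above it.

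The genes that differed most upward were enzymes of fatty acid, steroid and drug metabolism. Cyp4a12a, a hydroxylase of fatty acids and arachidonic acid that is normally male-specific, had values of 12.22, 12.16 and 12.38 in KK females and of 5.63, 4.75 and 4.81 in C57BL/6J females. The C57BL/6J females were close to background, and the KK females came up to the KK males, at 12.48, 12.49 and 12.58. The difference was 7.19 (SE 0.21, 146-fold, adjusted p = 1.65e-09), and its near-identical neighbour Cyp4a12b differed by 7.05 (SE 0.18, 133-fold). Akr1c18, which inactivates progesterone, stood at 10.55, 10.31 and 10.72 against 5.16, 5.14 and 5.37 (39.4-fold). Gstp3, a glutathione S-transferase of the pi class, was almost constant in KK, at 12.05, 12.06 and 11.99, against 6.85, 7.36 and 7.29 (29.2-fold). In none of these 4 genes did the groups overlap.

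The next increases joined P450 enzymes to genes of other kinds. Cyp2c39, an arachidonic acid and retinoid hydroxylase, had KK values of 12.41, 11.83 and 11.92 and C57BL/6J values of 8.30, 8.34 and 8.16 (13.8-fold). Hsd3b5, a 3-ketosteroid reductase of male liver, had KK values of 9.07, 8.93 and 9.64 against 6.52, 4.39 and 5.42 (13.7-fold), so that its spread lay mostly in C57BL/6J. Cap2, which binds actin monomers, gave the tightest contrast, with 8.47, 8.39 and 8.67 against 4.86, 4.87 and 4.80 (12.7-fold, adjusted p = 6.16e-10). Cyp46a1, the cholesterol 24-hydroxylase known from brain, rose by 3.03 to 9.33, 9.0 and 8.53. Gdpd3, a lysophospholipase D, rose by 3.08 from background, and KK female 1 was highest at 8.36, above 7.06 and 7.25. The rest of the 15 largest were Serpina4-ps1 (3.52), the guanylate-binding protein gene Gbp11 (2.78), the ion channel gene Asic5 (2.69), Abhd1 (2.60), the complement gene C6 (2.54) and the organic anion transporter gene Slc22a28 (2.53). Slc22a28 was the least firm of them, with an adjusted p of 0.0125 that was 0.0597 when only the 6 female arrays were fitted.

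The largest decreases began with an esterase pseudogene and enzymes of the female liver. Ces2d-ps had values of 3.84, 4.77 and 5.49 in KK females and of 9.96, 9.93 and 10.01 in C57BL/6J females (38.6-fold lower, adjusted p = 3.66e-06). Cyp2b13, a female-specific P450, stood at 5.59, 5.35 and 3.71 against 9.93, 10.09 and 9.94 (34.4-fold lower). KK female 3 was at background, and without it the difference was still -4.52. Cyp17a1, the steroid 17-hydroxylase and lyase, had 6.55, 6.41 and 6.03 against 10.57, 11.55 and 10.48 (23.2-fold lower). Vnn1, the pantetheinase and a PPARalpha target, had 6.56, 6.35 and 6.24 against 9.86, 10.30 and 10.53 (14.4-fold lower). No KK value of these 4 genes came within 3 log2 units of the lowest C57BL/6J value.

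Among the other decreases, 3 genes serve functions of every cell. Eif4a1, a helicase of translation initiation, had KK values of 5.22, 4.24 and 4.62 against 8.85, 8.92 and 8.82. Sarnp, of mRNA export, lay at 3.90, 3.69 and 4.70 against 7.21, 7.95 and 8.42, and Capza1, which caps actin filaments, at 5.86, 4.63 and 6.50 against 8.52, 8.64 and 9.50. Whether strain sequence differences under the probes take part in such near-complete losses was not tested, since the values do not resolve single probes. Serpina1d, an antitrypsin gene, fell by 3.36. Decreases were also found for the female-biased Cyp2a22 (-3.34), the sulfotransferase gene Sult3a1 (-3.20) and Cyp3a16 (-3.07), the last with an adjusted p of 0.0573 when only the 6 female arrays were fitted. Glt1d1 fell by 3.06, and Atp6v0d2, a subunit of the proton pump of lysosomes, fell by 3.04 to 4.69, 4.64 and 4.57, the background level. Cyp39a1, which hydroxylates oxysterols on the way to bile acids, fell by 2.88. Sult2a1, which sulfates bile acids and steroids, differed by -2.92, from 4.61, 8.68 and 5.79 in C57BL/6J to background in KK. Its adjusted p of 0.0287 rose to 0.0804, 0.0715 and 0.0739 without KK female 1, 2 or 3. Many of these genes have close paralogs, so values of the Cyp4a12, Cyp2a, Cyp2b, Cyp3a, Akr1c, Gstp, Serpina1, Ces2, Gbp, Mup and H2 genes are uncertain as to the gene.

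**Figure D2:**
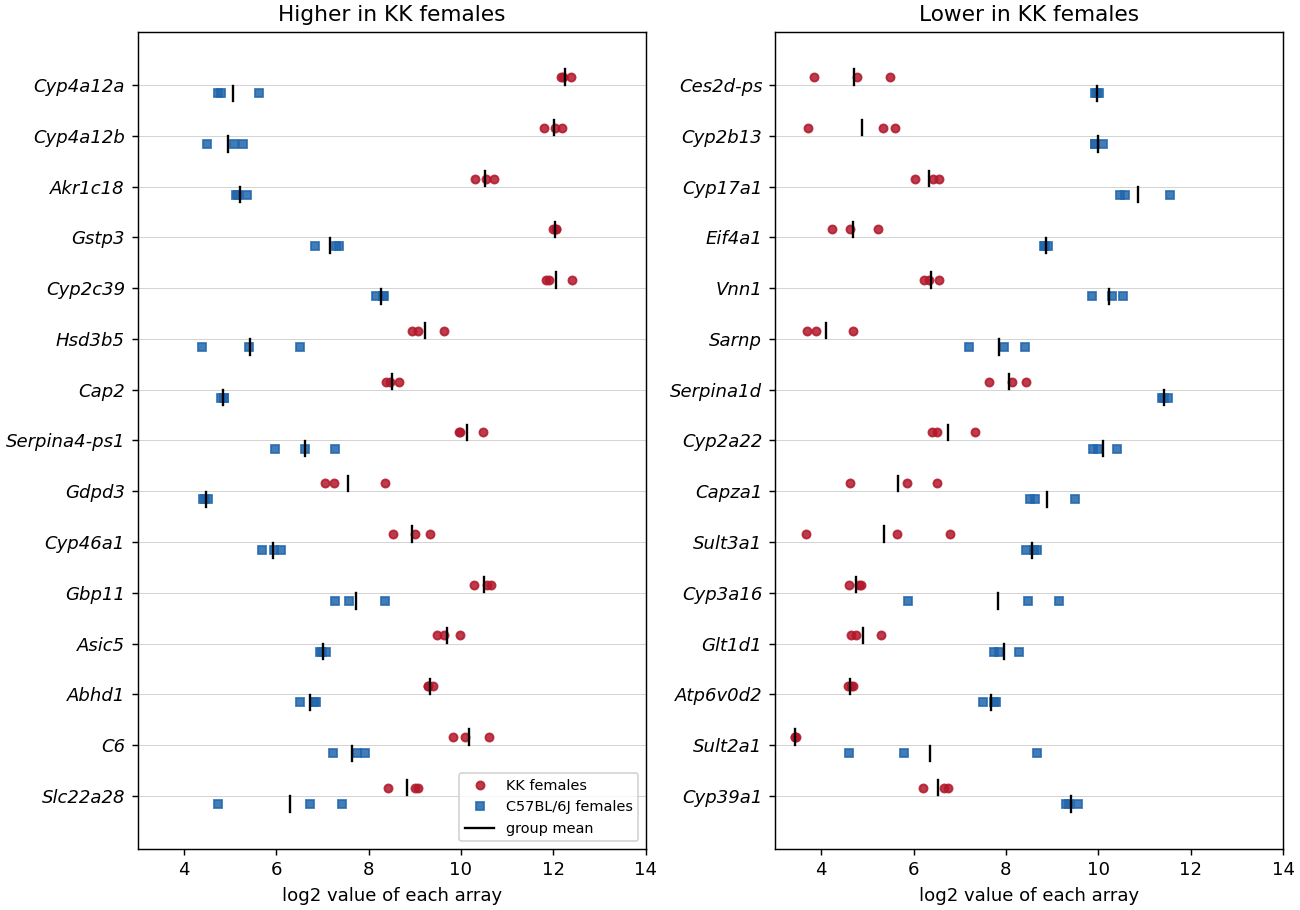
The log2 value of each array is shown for the 15 largest increases (left) and 15 largest decreases (right) that were called and did not overlap, with red circles for 3 KK females, blue squares for 3 C57BL/6J females and a black bar for each group mean. Cap2 and Gstp3 have narrow groups, while Sult3a1 spreads from 3.67 to 6.79 in KK and Sult2a1 from 4.61 to 8.68 in C57BL/6J.

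Male-biased liver genes were higher in KK females. The median difference of the 22 measured was 1.0, against -0.01 over all probe sets. Of these, 14 rose and 0 fell (63.6% called, against 6.85% of all genes with a symbol). Beside Cyp4a12a, Cyp4a12b, Hsd3b5, Serpina4-ps1 and C6, they included Slco1a1, an organic anion uptake carrier, at 12.14, 11.89 and 12.21 against 10.74, 8.93 and 10.35 (2.07). Mup20, the urinary protein darcin, stood at 12.97, 12.69 and 13.35 against 11.19, 10.57 and 11.36 (1.96). Nat8f5 rose by 1.74, the oxysterol hydroxylase gene Cyp7b1 by 1.66, Cyp2d9 by 1.63, the coenzyme A pyrophosphatase gene Nudt7 by 1.05 and Cspg5 by 0.93. Bcl6 was higher by 0.95, at 7.27, 7.32 and 7.56 against 6.76, 6.30 and 6.24. Its adjusted p of 0.0191 rose to 0.0741 and 0.0769 when C57BL/6J female 2 or 3 was left out, and to 0.0708 when KK female 3 was. The weakest of the 14 was Ugt2b38, with a difference of 0.64 (adjusted p = 0.0488) that was lost without any of 10 arrays, at adjusted p-values up to 0.183. Without any one array, 12 to 14 of the list were called.

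The other 8 male-biased genes were not called. Elovl3, a fatty acid elongase, had KK values of 8.48, 8.76 and 9.93, of which the highest, from KK female 3, stood apart from a C57BL/6J range of 8.10 to 8.54 (difference 0.70, adjusted p = 0.201). Moxd1, at 4.16, 4.51 and 4.38 against 4.39, 4.45 and 4.33, was at background in both female groups (difference -0.04, adjusted p = 0.983).

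Female-biased liver genes were lower in KK females. Of 20 measured, 12 fell and 0 rose (60%, against 6.85% of all genes with a symbol), with a median difference of -1.73. The 12 were Cyp2b13, Cyp17a1, Sult3a1, Cyp3a16, Sult2a1, Slc22a26, Slc22a27, Abcd2, Nipal1, Cyp4a14, Fmo2 and Trim24. Slc22a26, an organic anion transporter gene, had values of 9.17, 8.23 and 6.23 in KK females and of 10.94, 10.74 and 10.45 in C57BL/6J females, a difference of -2.83. Its neighbour Slc22a27 stood at 6.31, 5.31 and 4.47 against 7.78, 7.69 and 8.35 (-2.57). Abcd2, a peroxisomal transporter of very long acyl chains, had 8.02, 7.37 and 6.75 against 9.44, 9.89 and 9.93 (-2.37). Nipal1, a magnesium transporter gene, fell by 1.92, the flavin monooxygenase gene Fmo2 by 1.46 and Trim24 by 0.90. Cyp4a14 was lower by 1.78 (adjusted p = 0.0152), which became 0.0536 or 0.0541 when C57BL/6J female 2 or 3 was left out. Without any one array, 11 to 13 of the list were called. Both lists were drawn up from general knowledge of sex-biased liver genes, but with earlier results of these arrays known, so their direction is not independent evidence.

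The females of a group were not alike in these genes. KK female 3 was the lowest of 3 KK females in 12 of the 12 female-biased genes called, and in 19 of all 20 measured. It was the highest in 12 of the 14 male-biased genes called, and in 18 of all 22 measured. Over all calls, KK female 3 was the lowest of 3 in 25.3% of those lower in KK and the highest of 3 in 32.6% of those higher. Sult3a1 had values of 6.79, 5.65 and 3.67 in KK females 1, 2 and 3, while C57BL/6J females lay between 8.44 and 8.67 and males of both strains between 3.42 and 3.52. A1bg showed the widest gap, with 11.72, 11.58 and 7.35 in the KK females, 10.65 to 11.48 in the C57BL/6J females and 4.98 to 5.65 in the males. Because of that spread its difference of -0.83 had an SE of 0.85 and an adjusted p of 0.759. The median SD of the 12 called female-biased genes was 0.56 among KK and 0.26 among C57BL/6J females, against 0.11 and 0.10 over all probe sets. For the 14 called male-biased genes it was 0.31 among KK and 0.41 among C57BL/6J females, and C57BL/6J female 2 was the lowest of its group in 11 of them. KK female 3 had female levels of Xist (10.39) and of the Y-linked genes. Without it, 12 male-biased genes were still called higher and 11 female-biased genes lower.

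**Figure D3:**
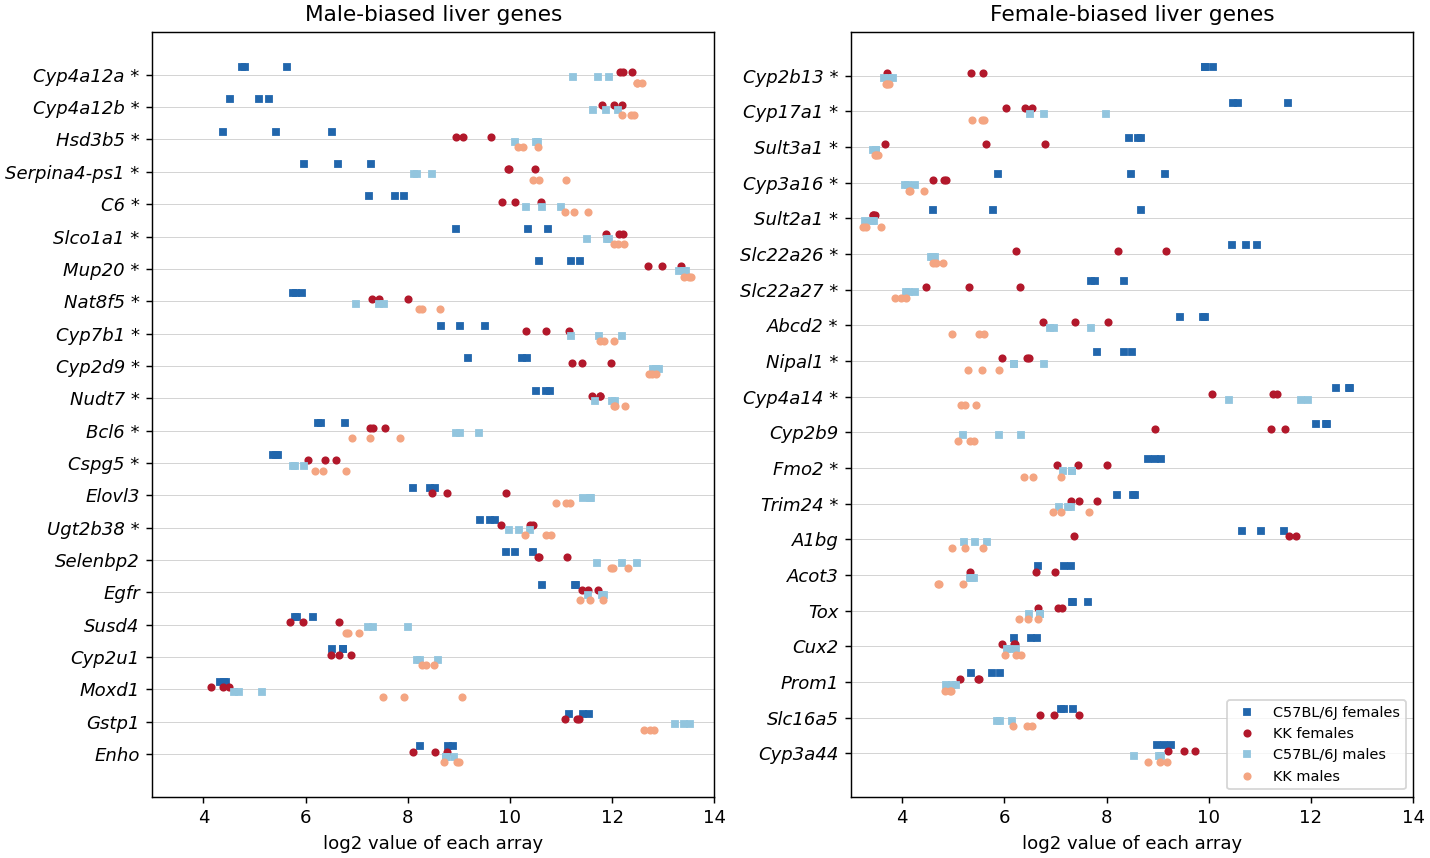
The log2 value of each array is shown for 22 male-biased (left) and 20 female-biased (right) liver genes, with dark blue squares for C57BL/6J females, dark red circles for KK females, light blue squares for C57BL/6J males and orange circles for KK males. An asterisk marks the 14 and 12 genes called between the female groups. KK females lie near the males for Cyp4a12a and Cyp4a12b, and between the C57BL/6J females and the males for Slc22a26 and Abcd2.

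Promoter sequences are given for the sex-biased calls that held a STAT5 motif and for a pair of neighbouring P450 genes. RefSeq windows of the 250 bases before the transcription start, on build GRCm38.p6, were at hand for 8 of the 14 male-biased and 8 of the 12 female-biased genes called. TTCNNNGAA, the STAT5 motif, reads the same on both strands and was found in 7.02% of 32851 windows of this length. It stood in 2 of 10 windows of the male-biased genes, both of Bcl6, and in 2 of 10 of the female-biased genes, those of Sult3a1 and Slc22a26. The HNF6 core, ATCAAT or ATTGAT on the other strand, stood in 6.72% of all windows, in 0 of 10 and in 3 of 10, those of Cyp3a16, Sult3a1 and Slc22a26. The motif letters do not overlap each other in the sequences below, where they are in capitals. Such a match is a description and no evidence of binding.
Sult3a1 (chr10:33857472-33857721, plus strand): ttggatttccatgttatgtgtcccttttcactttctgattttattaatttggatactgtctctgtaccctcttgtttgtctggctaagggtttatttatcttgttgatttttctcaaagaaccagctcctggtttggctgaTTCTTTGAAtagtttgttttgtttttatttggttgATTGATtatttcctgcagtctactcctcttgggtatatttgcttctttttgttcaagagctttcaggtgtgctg
Slc22a26 (chr19:7802668-7802917, minus strand): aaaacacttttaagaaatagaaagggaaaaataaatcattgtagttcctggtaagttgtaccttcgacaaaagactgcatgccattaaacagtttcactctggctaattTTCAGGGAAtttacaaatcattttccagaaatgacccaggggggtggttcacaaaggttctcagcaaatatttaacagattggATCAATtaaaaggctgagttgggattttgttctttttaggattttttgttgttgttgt
Bcl6 (chr16:23981284-23981533, minus strand): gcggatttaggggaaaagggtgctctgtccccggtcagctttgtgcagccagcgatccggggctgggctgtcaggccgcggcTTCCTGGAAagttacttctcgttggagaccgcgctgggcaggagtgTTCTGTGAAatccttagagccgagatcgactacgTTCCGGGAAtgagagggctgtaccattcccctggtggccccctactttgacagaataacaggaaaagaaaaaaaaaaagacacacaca
In Sult3a1 the STAT5 motif began 109 bases and the HNF6 core 74 bases before the start, in Slc22a26 141 and 58 bases. Bcl6 held 3 STAT5 motifs, which began 168, 122 and 88 bases before the start.

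Cyp2b13 and Cyp2b9 are neighbouring female-biased P450 genes with almost the same promoter letters.
Cyp2b13 (chr7:26061245-26061494, plus strand): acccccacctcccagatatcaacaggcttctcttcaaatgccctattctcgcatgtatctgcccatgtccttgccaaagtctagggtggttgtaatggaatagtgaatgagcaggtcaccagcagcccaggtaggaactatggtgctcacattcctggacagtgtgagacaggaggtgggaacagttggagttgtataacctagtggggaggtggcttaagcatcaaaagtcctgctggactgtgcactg
Cyp2b9 (chr7:26173159-26173408, plus strand): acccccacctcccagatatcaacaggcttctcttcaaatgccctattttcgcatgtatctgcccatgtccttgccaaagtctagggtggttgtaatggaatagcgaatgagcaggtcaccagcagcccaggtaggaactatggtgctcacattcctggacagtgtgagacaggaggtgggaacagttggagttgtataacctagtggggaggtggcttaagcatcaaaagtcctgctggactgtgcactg
Of the 250 positions, 248 (99.2%) were identical, and from Cyp2b13 to Cyp2b9 the substitutions were C48T and T104C, counted from 1 at the 5′ end of the window. Cyp2b13 differed by -5.11 between the female groups. Cyp2b9 had values of 11.49, 11.22 and 8.95 in KK females and of 12.31, 12.30 and 12.11 in C57BL/6J females, a difference of -1.69 that was not called (adjusted p = 0.077). The difference between the 2 genes was not tested, and their probes may read either gene.

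Of 19 genes of growth hormone signalling itself, 4 rose and 1 fell (26.3%, against 6.85% of all genes with a symbol), with a median difference of 0.06. Igfbp2, a binding protein of insulin-like growth factors, fell from 11.03, 11.15 and 11.62 to 8.45, 8.63 and 8.87 (-2.62, SE 0.22, adjusted p = 1.66e-05). Igfbp3, the main carrier of IGF1 in plasma, rose from 6.68, 7.12 and 6.97 to 8.85, 8.43 and 8.16 (1.56, adjusted p = 0.000192). Neither gene overlapped between the strains, as was so for 1377 of all 1378 calls. The other calls were Bcl6, Onecut2 (0.38) and Igf1 (0.34), and without any female array except C57BL/6J female 3 only 2 genes were called higher. The receptor gene Ghr differed by 0.07 (adjusted p = 0.777), Stat5b by -0.21 (adjusted p = 0.173) and the feedback inhibitor gene Socs2 by -0.41 (adjusted p = 0.618).

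The strain difference was then compared with that between the males, in which 1092 probe sets (5.15%) were called. Both sexes called 659 probe sets, 657 in the same direction, and of the 212 at least 2-fold calls in females 148 were called in males, all in the same direction. The difference between the sexes was itself called for 30 probe sets (0.141%), 14 above 0 (0.0660%) and 16 below (0.0754%), and 1346 had an unadjusted p under 0.05. The largest were sex-biased genes. This follows in part from the contrast, which is also the sex difference in KK minus that in C57BL/6J. Cyp4a12a differed by 7.19 in females and by 0.88 in males, and Cyp2b13 by -5.11 in females and by -0.03 in males, in which it was at background. Cyp2a22, by -3.34 and -0.25, and Atp6v0d2, by -3.04 and -0.53, behaved alike. Cyp4a14 and Cyp4a10, PPARalpha-controlled hydroxylases, were the reverse, with differences of -1.78 and -1.04 in females and of -6.11 and -3.43 in males. Bcl6 was higher in KK females (0.95) but lower in KK males (-1.78), where C57BL/6J males stood at 9.03, 8.95 and 9.39. Moxd1 differed by 3.35 in males and by -0.04 in females.

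Calls of the interaction varied in firmness. Those of Cyp4a12a, Cyp4a12b, Cyp2b13, Cyp2a22, Atp6v0d2, Cyp4a14, Cyp4a10, Bcl6 and Moxd1 held without any one array. Hsd3b5 (3.77 in females, -0.06 in males, adjusted p = 0.0174) was lost without any of 5 arrays, at adjusted p-values up to 0.066. Cish, a target and inhibitor of STAT5 signalling, differed by -0.59 in females and by 1.20 in males, which was lost without any of 4 arrays (up to 0.0714). Cyp17a1 was lost without any array other than C57BL/6J male 1 (up to 0.144).

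**Figure D4:**
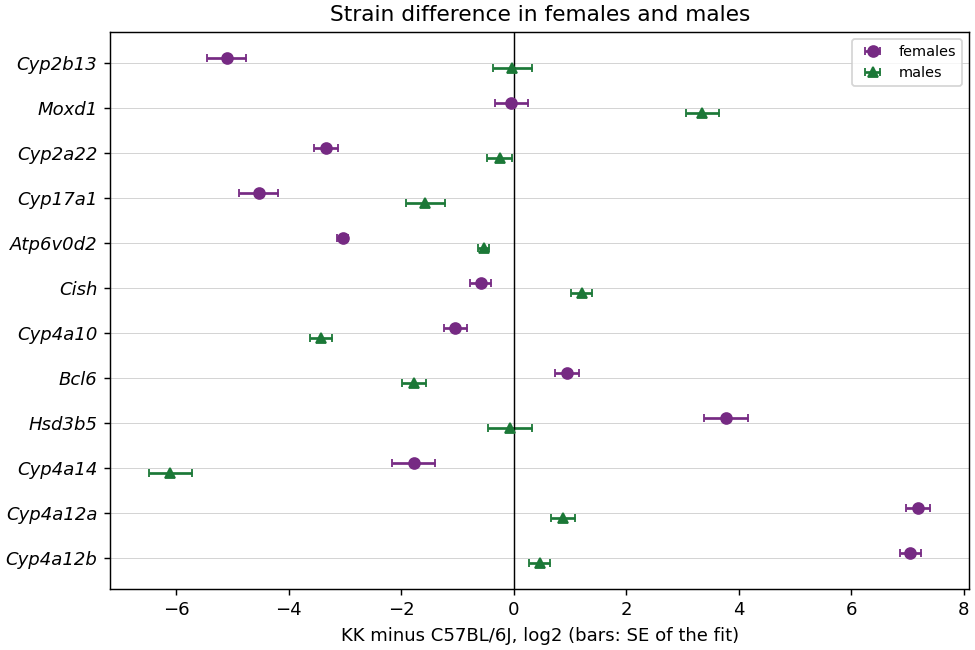
For the 6 largest named interaction calls in each direction, the KK minus C57BL/6J difference on the log2 scale is shown for females (purple circles) and males (green triangles), with bars for the SE of the fit. Females lie far from 0 for Cyp4a12a, Cyp4a12b, Hsd3b5, Cyp2b13 and Cyp2a22, and males for Moxd1, Cyp4a14 and Cyp4a10. Bcl6 and Cish lie on opposite sides of 0 in the sexes.

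Families of enzymes and carriers of drug and steroid metabolism had 25% to 100% of their measured genes called, against 6.85% of the 18784 genes with a symbol (3.34% higher, 3.51% lower). This 6.85%, here and beside the other lists, includes genes at background. In 5035 of the 21212 probe sets neither female mean was above 4.66, and 1182 of the 1378 calls had a mean above the median. The share among brighter genes, to which most of the lists belong, is therefore higher, and no share at matched level was computed. All 6 CYP4A genes measured were called, 3 in each direction: Cyp4a12a, Cyp4a12b and Cyp4a32 (0.53) higher, Cyp4a14, Cyp4a10 and Cyp4a31 (-0.97) lower. Cyp4a10 had 12.32, 11.99 and 11.38 against 12.86, 12.99 and 12.95. The call of Cyp4a32 ended without any of 9 arrays (up to 0.174) and that of Cyp4a31 without any of 7 (up to 0.12), so that 1 of the list was lower without C57BL/6J female 2 or 3. Of 13 CYP2C genes, 2 rose and 2 fell, but 1 rose without C57BL/6J female 2 or KK female 1, and 1 fell without any of 8 arrays (C57BL/6J female 1 or 3, any C57BL/6J male, KK female 2 or 3, KK male 1). Cyp2c37, an arachidonic acid epoxygenase, fell from 12.59, 12.58 and 12.64 to 11.45, 11.12 and 11.36 (-1.29). Of 14 CYP2A, CYP2B and CYP3A genes, 1 rose and 4 fell. With only the 6 female arrays 0 rose and 2 fell, and 0 rose without C57BL/6J female 2 or 3 or KK female 1 or 3.

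Of 23 glutathione S-transferase genes, 4 rose and 3 fell (30.4%, against 6.85% of all genes with a symbol). Beside Gstp3, Gstm2 rose by 0.67, and Gsto1 fell to 8.94, 9.04 and 9.06 from 10.06, 9.97 and 10.05 (-1.01, adjusted p = 2.18e-06). The theta class genes Gstt2 and Gstt1 fell by 0.78 and 0.53. Gstm3 was higher by 0.69, but its adjusted p was 0.0657 without C57BL/6J female 2, and 2 genes of the family rose without that array. Of 17 carboxylesterase genes, which hydrolyse drugs and lipid esters, 1 rose and 5 fell. Ces2a fell from 10.12, 9.92 and 10.30 to 7.96, 7.94 and 8.31 (-2.04), and Ces3b from 12.25, 12.17 and 12.27 to 10.87, 10.83 and 10.85 (-1.38). Ces1g fell by 0.58 and Ces1e rose by 0.54. The AKR1 family held 1 increase, Akr1c18, and 4 decreases among 14 genes, with Akr1c12, its neighbour on chromosome 13, at 6.40, 6.00 and 6.28 against 8.87, 8.88 and 9.0 (-2.69). Akr1c20 fell by 0.62, and only 2 fell without KK female 2.

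Of 28 organic anion and cation transporters, 2 rose (Slco1a1 and Slc22a28) and 7 fell (32.1%, against 6.85% of all genes with a symbol). Slco1a4 had 8.66, 7.76 and 8.38 against 10.20, 10.93 and 10.61 (-2.32). Abcb11, the bile salt export pump, fell by 0.91 and Abcc6, an ATP exporter, by 0.86. After quantile or loess normalization 5 transporters rose. Of 24 sulfotransferase and glucuronosyltransferase genes, 3 rose and 3 fell. Ugt3a1 fell by 0.52, and the 3 increases, among them Ugt2b1 (0.69) and Ugt2b5 (0.55), were down to 0 without C57BL/6J female 2 or KK female 3 and to 1 without C57BL/6J female 3 or KK female 1. Of 4 Mup genes Mup20 was called, and 2 rose without C57BL/6J female 1. Of 16 targets of the drug-sensing receptors CAR, PXR and AHR, 1 rose and 5 fell. The increase was lost without C57BL/6J female 2 or 3 or KK female 1 or 3, while 2 rose without KK male 1 or 3 and 3 after quantile or loess normalization. The receptor gene Ahr itself stood at 8.25, 8.27 and 8.27 against 8.82, 8.95 and 8.74 (-0.57). Of 20 NRF2 targets 1 rose and 0 fell (5%, no more than the 6.85% of all genes with a symbol). The number that rose ranged from 0 without C57BL/6J female 2 to 3 without C57BL/6J female 3. It was 5 after quantile or loess normalization.

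**Figure D5:**
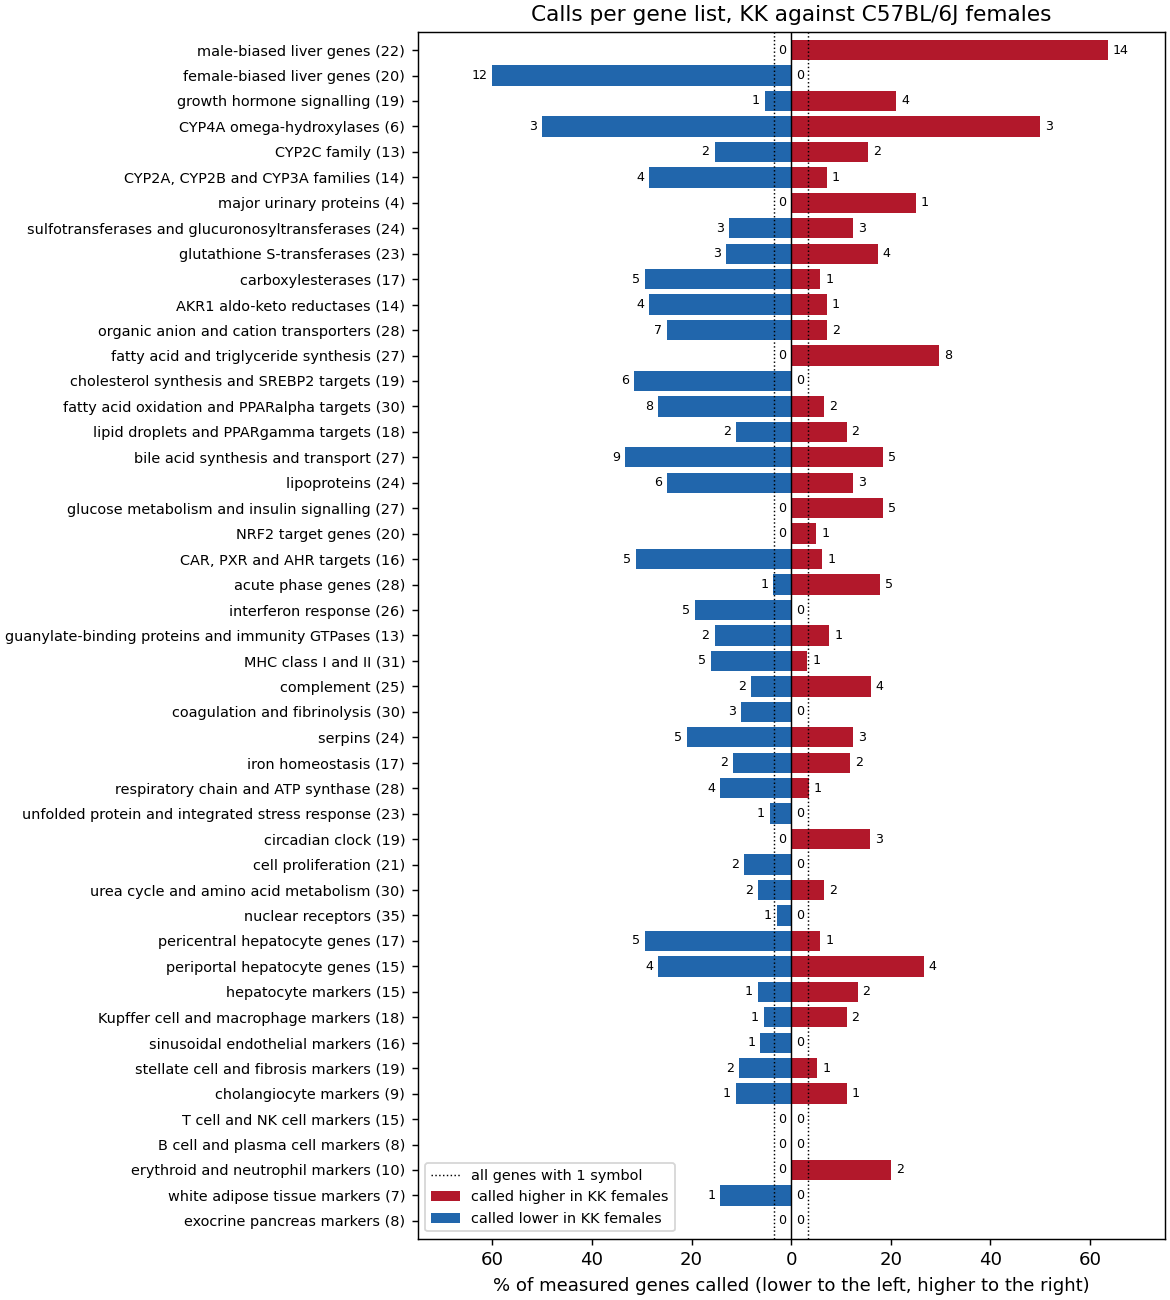
For each of 47 gene lists, with the number of measured genes in brackets, the bars show the percentage called higher (red, to the right) and lower (blue, to the left) in KK females, and the numbers beside them give the genes called. The dotted lines mark the 3.34% higher and 3.51% lower over all 18784 genes with 1 symbol. Male-biased genes were called only upward and female-biased genes only downward.

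In the fit above, genes of fatty acid and triglyceride synthesis were called upward only. Of 27, 8 rose and 0 fell (29.6%, against 6.85% of all genes with a symbol), but the median difference was 0.07. Without any one array 6 to 8 rose. However, 1 fell without C57BL/6J male 1, with array weights or with the interquartile range as a covariate. Thrsp, an activator of lipogenesis, had values of 11.10, 11.14 and 11.38 in KK females and of 9.90, 10.06 and 9.48 in C57BL/6J females (1.39, adjusted p = 0.00051). Acacb, the acetyl-CoA carboxylase at mitochondria, stood at 9.49, 9.64 and 9.60 against 8.78, 8.65 and 8.58 (0.91). Mogat1, a monoacylglycerol acyltransferase, had 5.26, 5.43 and 5.32 against 4.18, 4.32 and 4.60 (0.97), where C57BL/6J was at background. The desaturase gene Scd1 rose by 0.74, the elongase gene Elovl5 by 0.56 and the desaturase gene Fads1 by 0.33. None of these 6 genes overlapped between the strains, as was so for 1377 of all 1378 calls. Fasn, the fatty acid synthase, and Srebf1, its regulator, were not called: Fasn differed by -0.11 (adjusted p = 0.857) and Srebf1 by -0.02 (adjusted p = 0.98).

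In the fit above, cholesterol synthesis genes were called downward only, though 1 rose with array weights. Of 19, 6 fell and 0 rose (31.6%, against 6.85% of all genes with a symbol), with a median difference of -0.54. An unadjusted p under 0.05 was found for 15. Sc5d, a sterol desaturase, fell from 11.84, 12.04 and 11.99 to 10.91, 10.67 and 10.86 (-1.15, adjusted p = 1.97e-05). Msmo1, a sterol methyl oxidase, had 11.20, 10.69 and 10.97 against 11.53, 12.44 and 11.92 (-1.01). Pmvk, of the mevalonate pathway, fell by 0.80 and Ggps1, which makes geranylgeranyl diphosphate, by 0.60. Among C57BL/6J females the mean level of the list was 9.24, 9.90 and 9.55, and without C57BL/6J female 1, the lowest, 12 genes were called lower. In KK females it was 9.10, 9.01 and 9.14, below all 3.

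Fatty acid oxidation genes and PPARalpha targets fell more often than they rose, with 8 lower and 2 higher of 30. These were 33.3%, against 6.85% of all genes with a symbol, and 6 to 9 were lower without any one array. Vnn1 and the Cyp4a genes are described above. Acot1, a cytosolic acyl-CoA thioesterase, had 7.66, 7.60 and 7.21 against 8.21, 8.82 and 8.76 (-1.11). Slc27a1, a fatty acid carrier, fell by 0.64, the mitochondrial carnitine carrier gene Slc25a20 by 0.51 and Ehhadh, of peroxisomal oxidation, by 0.48. Ppara itself overlapped between the strains, with a difference of 0.16 (adjusted p = 0.526), and Cpt1a differed by -0.39 (adjusted p = 0.107). The 2 increases, Pex11a (0.52) and Angptl4 (0.42), were down to 0 without C57BL/6J female 1 or KK female 2. Of 18 lipid droplet genes and PPARgamma targets, 2 rose and 2 fell (22.2%). Only 1 rose without any of 8 arrays (C57BL/6J female 1 or 3, KK female 1 or 2, C57BL/6J male 2 or 3, KK male 1 or 2) or after quantile or loess normalization, and only 1 fell without any female array except KK female 3. Cd36, a fatty acid uptake receptor, had 9.72, 9.41 and 9.24 against 10.15, 10.33 and 10.38 (-0.83), while Pparg differed by 0.00 (SE 0.21) and was not called.

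Genes of bile acid synthesis and transport changed in both directions. Of 27, 5 rose and 9 fell (51.9%, against 6.85% of all genes with a symbol). In the alternative, oxysterol-based routes of synthesis Cyp39a1 stood at 6.75, 6.66 and 6.19 against 9.36, 9.57 and 9.31, and Cyp46a1 and Cyp7b1 rose as given above. Cyp7a1, the rate-limiting enzyme of the classic route, was not called (0.18, SE 0.35, adjusted p = 0.899), with 11.44, 11.23 and 10.28 against 11.35, 10.72 and 10.33. Of the later steps, the CoA ligase gene Slc27a5 fell from 12.12, 11.97 and 12.10 to 11.40, 11.33 and 11.47 (-0.66) and Hsd3b7 fell by 0.42. The export pump gene Abcb11 had 11.57, 11.46 and 11.37 against 12.40, 12.43 and 12.29. Scp2, a sterol carrier and peroxisomal thiolase, rose by 0.76, and Fgfr4, the receptor through which FGF15 restrains bile acid synthesis, rose by 0.59. Only 5 of the list were called lower without KK female 1 or KK female 2.

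Of 24 lipoprotein genes, 3 rose and 6 fell (37.5%, against 6.85% of all genes with a symbol), and 6 fell without any one array. Apoa4, an apolipoprotein of triglyceride-rich particles, rose from 10.39, 10.27 and 10.26 to 12.46, 12.46 and 12.29 (2.10, adjusted p = 1.39e-06). Apoa1, the main HDL protein, fell from 13.37, 13.54 and 13.58 to 13.04, 13.02 and 13.02 (-0.47). Abcg5 and Abcg8, which together export sterols into bile, fell by 0.79 and 0.90, and Apom fell by 0.68. Vldlr had 5.37, 5.30 and 5.17 against 5.99, 6.27 and 6.28 (-0.90), and Scarb1, the HDL receptor, fell by 0.44. Only 1 of the list was called higher without KK female 1.

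Of 27 genes of glucose metabolism and insulin signalling, 5 rose and 0 fell (18.5%, against 6.85% of all genes with a symbol). However, only 1 to 3 rose without any one of 9 arrays. Pik3r1, the regulatory subunit of PI3-kinase, held without any one array, at 9.03, 8.74 and 8.73 against 8.20, 8.35 and 8.28 (0.56, adjusted p = 0.0114). The gluconeogenic genes G6pc (0.75), Pck1 (0.58) and Pcx (0.29) and the glycolytic Pklr (0.52) had adjusted p-values of 0.0416, 0.0298, 0.0472 and 0.0233. Each of the 4 was lost without any of at least 4 arrays, at adjusted p-values up to 0.148, 0.107, 0.149 and 0.0915. Irs2 differed by -0.23 (adjusted p = 0.26).

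Of 28 acute phase genes, 5 rose and 1 fell (21.4%, against 6.85% of all genes with a symbol). Only 3 rose without C57BL/6J female 2 or 3, and 0 fell without C57BL/6J female 3. Apcs, serum amyloid P, had 11.45, 11.26 and 11.56 against 9.75, 9.45 and 9.38 (1.90, adjusted p = 2.98e-06). Lbp, which binds lipopolysaccharide, rose by 0.80 and Saa4 by 1.05. Orm2 and Lcn2 were highest in KK female 3. Orm2 had 10.30, 10.36 and 11.44 against 9.99, 8.99 and 9.23, and its adjusted p of 0.0246 was 0.0626 without KK female 3, and 0.102 or 0.087 when C57BL/6J female 2 or 3 was left out. Lcn2 had 9.53, 9.56 and 11.15 against 8.55, 8.29 and 7.66 (1.91, adjusted p = 0.0396), and the call ended without any of 7 arrays, at adjusted p-values up to 0.143. The mean level of the list was 10.28, 10.17 and 10.74 in KK females and lay between 9.89 and 10.14 in C57BL/6J females.

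Complement genes moved both ways, with 4 higher and 2 lower of 25 (24%, against 6.85% of all genes with a symbol). The terminal components C6 and C9 rose, C9 from 10.53, 9.65 and 10.15 to 11.16, 11.09 and 11.55 (1.16). Hc, which encodes the fifth component and precedes them in the cascade, fell from 11.81, 11.49 and 11.58 to 10.24, 10.11 and 10.38 (-1.39). Only 2 rose without KK female 3, and 1 fell without C57BL/6J female 3. Of 24 serpins, 3 rose and 5 fell (33.3%), and 3 fell without C57BL/6J female 2 or 3. Serpina12, the adipokine vaspin, had 7.19, 7.22 and 7.19 against 5.25, 4.61 and 5.45 (2.10), Serpina11 rose by 1.56, and Serpina6, which carries corticosteroids in plasma, fell by 0.83. Of 30 coagulation genes 0 rose and 3 fell (10%, near the 6.85% of all genes). Of these Kng2 (-0.51) held without any one array, while only 1 fell without C57BL/6J female 1 or 3 or KK female 2. In iron homeostasis 2 of 17 rose and 2 fell (23.5%). Only 0 or 1 rose without any one female array or KK male 1, and 1 fell without any female array except KK female 2. Hjv, the hemojuvelin gene, fell from 8.74, 8.90 and 9.02 to 7.60, 7.54 and 7.95 (-1.18). Hamp, which encodes the iron hormone hepcidin, had 11.56, 11.51 and 11.52 against 9.88, 10.18 and 9.65. Although these did not overlap, its adjusted p of 0.0289 rose to between 0.0529 and 0.101 without any one female array.

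Interferon response genes were called downward only in the fit above, 5 of 26 (19.2%, against 6.85% of all genes with a symbol). Their median difference was -0.28. Without KK female 3, with the replicate block or with the interquartile range as a covariate, 1 rose. Usp18, which restrains interferon signalling, had 6.61, 6.66 and 6.50 against 7.76, 7.72 and 8.05 (-1.26), and Bst2, which tethers virions, 8.67, 8.98 and 8.66 against 9.75, 9.26 and 9.81 (-0.84). The others were Ifit1 (-1.10), Rsad2 (-0.67) and Ifih1 (-0.44), none of which held without every array. The count of genes lower was 2 without C57BL/6J female 3 or KK female 2 and 3 without C57BL/6J female 1 or KK female 3. It was 8 when only the 6 female arrays were fitted. Of 13 GTPases of cell-autonomous immunity, Gbp11 rose and Iigp1 (-0.94) and Gbp2 (-0.66) fell, 23.1% of the list. The call of Gbp2 was lost without any array except KK female 1 and C57BL/6J males 1 and 2 (adjusted p up to 0.167), and after quantile or loess normalization. Of 31 MHC genes, 1 rose and 5 fell (19.4%), and 4 to 6 fell without any one array. The class Ib genes H2-T23 and H2-T22 stood at 8.91, 8.64 and 8.53 and at 8.56, 7.67 and 8.09 in KK females, against 10.48, 10.35 and 10.70 and 10.03, 10.01 and 10.07. H2-T10, which lies beside them, rose by 1.36. Strains differ greatly in the sequence of H2 genes, and the part of this in the values was not tested.

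Lists of other cell functions had 2.86% (nuclear receptors) to 17.9% (respiratory chain) of their genes called, against 6.85% of all genes with a symbol. Of 28 genes of the respiratory chain and ATP synthase, Nnt rose and 4 fell, Ndufa9 by 0.53 and Cox6c by 0.39, and only 2 fell without C57BL/6J female 2 or KK female 1. Of 19 clock genes 3 rose, with Usp2 at 8.05, 7.84 and 7.79 against 7.10, 6.92 and 6.88 (0.93), and 1 rose without C57BL/6J female 3 or KK female 1. Ccnd1, cyclin D1, had 7.87, 8.03 and 7.64 against 8.73, 9.33 and 9.22 (-1.25). The other call among 21 proliferation genes, Mcm6 (-0.48), was lost without C57BL/6J female 3, KK female 1 or KK female 3 (adjusted p up to 0.0795). Of 30 genes of the urea cycle and amino acid metabolism, 2 rose and 2 fell. Only 0 or 1 rose without any female array except C57BL/6J female 2, and 1 fell without C57BL/6J female 1 or 2, KK female 2 or KK male 1 or 2. Of the decreases Hal, the histidase gene, held without any one array (-0.37). Among 23 genes of the unfolded protein response limma called 1 lower, Sdf2l1 (-0.69), and 0 without KK female 1. Among 35 nuclear receptors it called 1, Hnf4g (-0.27), at background in both strains, which was lost without any of 6 arrays.

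Hepatocyte genes of both zones of the lobule were called. Of 17 pericentral genes 1 rose and 5 fell (35.3%), and of 15 periportal genes 4 rose and 4 fell (53.3%). Among all genes with a symbol 6.85% were called. Aldh3a2, a fatty aldehyde dehydrogenase, fell from 11.20, 11.50 and 11.36 to 10.27, 9.85 and 9.86 (-1.36), and Csad, of taurine synthesis, rose from 9.14, 8.95 and 8.89 to 10.39, 10.25 and 10.20 (1.29). Etnppl, which breaks down phosphoethanolamine, rose by 1.26 to 11.09, 10.93 and 11.15, and Hsd17b6 fell by 1.14. Only 2 or 3 pericentral genes fell without C57BL/6J female 2 or KK female 1 or 2, and 2 periportal genes rose without C57BL/6J female 2 or 3 or KK female 2 or 3.

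Apart from 3 lists with 0 calls, given below, marker lists of other liver, blood and adipose cells had 6.25% (sinusoidal endothelium) to 22.2% (cholangiocytes) called. The share of all genes with a symbol was 6.85%. Of 18 Kupffer cell and macrophage markers 2 rose and 1 fell, and none of the 3 held without every array. Their mean level was 8.24, 7.79 and 7.63 in KK females and 7.80, 7.65 and 7.78 in C57BL/6J females. Of 16 markers of sinusoidal endothelium, Lyve1 was called, at 7.13, 6.52 and 6.75 against 7.55, 7.60 and 7.44 (-0.73), and 3 were lower without KK female 1. Of 19 markers of stellate cells and fibrosis, the pericyte gene Rgs5 rose from 7.38, 7.54 and 7.58 to 8.90, 8.43 and 8.43 (1.09), and 2 fell (Lum and Col3a1), none of them without C57BL/6J female 2 or 3 or KK female 2. Of 9 cholangiocyte markers Slc4a2 rose (0.40) and Pkhd1 fell (-0.38, lost without any of 4 arrays). Of 10 erythroid and neutrophil markers, Alas2, of heme synthesis in red cell precursors, rose from 8.44, 8.01 and 8.58 to 9.77, 9.83 and 10.22 (1.60, adjusted p = 4.72e-05). Slc4a1 (0.48) was lost without any of 5 arrays. Car3, abundant in hepatocytes too, was called among 7 adipose markers, at 12.46, 12.64 and 12.55 against 13.16, 13.14 and 13.16 (-0.61).

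Limma called 0 of 15 markers of T and NK cells, 0 of 8 of B and plasma cells and 0 of 8 of exocrine pancreas. Of these, 0, 1 and 0 had an unadjusted p under 0.05. The T and NK cell list had a median level of 4.53 in KK and 4.64 in C57BL/6J females, within the range of the Y-linked genes.

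Some of the large differences lay side by side in the genome, in several cases with opposite directions. Among the 187 named genes called at least 2-fold, 7 groups held 3 or more genes whose starts were no more than 500000 bases apart (build GRCm38.p6). Each span ran from the first to the last of these genes, so the number called within it was in part fixed by this choice. Among all genes with a symbol 6.85% were called. Whether called genes lie together more often than other genes was not tested. On chromosome 4, from 115299046 to 115533649, all 4 genes measured were called: Cyp4a12a and Cyp4a12b higher, Cyp4a14 and Cyp4a10 lower. On chromosome 12, from 103763587 to 104086920, Serpina1d fell while Serpina11, Serpina12 and Serpina4-ps1 rose, with 4 of 7 measured genes called. On chromosome 19, from 7780094 to 8131982, Slc22a26 and Slc22a27 fell and Slc22a28 rose, with 3 of 3 called. On chromosome 6, from 141805438 to 142012263, Slco1a4 fell and Slco1a1 and Gm6614 rose, with 3 of 3 called. On chromosome 8, from 104734003 to 105093929, Ces2a, Ces2d-ps and Ces3b fell, with 3 of 8 measured genes called. On chromosome 17, H2-T23, H2-T22 and H2-T10 stood together (3 of 5 measured genes called), as did Adgrf1 (-1.78), Pla2g7 (1.48) and Cyp39a1 (3 of 7). Over the X chromosome and the autosomes the share of named genes called ran from 3.61% on the X chromosome to 8.65% on chromosome 13.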

How the data were processed

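The values are log2 expression per probe set, which the authors made with RMA from the affy package, per the submitters' processing notes; versions are not given in the sources used here. Between-array scaling after RMA was not added. Of 21212 probe sets, 18786 have 1 symbol in the platform annotation, 6 several and 2420 none. Symbols were updated by Entrez ID to RefSeq GRCm38.p6, where 18773 of 18784 genes were found, and the brightest probe set stands for a gene.

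The 12 arrays were fitted with limma 3.58.1 in R 4.3.3 (lmFit, eBayes; 4 group means), and contrasts were KK minus C57BL/6J in females, the same in males, and their difference. A call is a Benjamini-Hochberg adjusted p under 0.05 over all probe sets. These p-values rest on the spread between single mice, pooled over all 4 groups, males included, and drawn by eBayes toward a value shared by all probe sets. They do not use the spread of each group by itself. The 926 listed symbols matched 832 genes, and 94 were not measured. Members and lists were chosen with earlier results of these data known.

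Named by rule were the 15 largest non-overlapping calls each way in females, the 6 largest interaction calls in each direction, the 5 members with the lowest adjusted p in any list, and the label checks and hepatocyte markers, all with 1 symbol and no predicted name. A1bg, Angptl4, Apom, Cpt1a, Cspg5, Cyp2b9, Cyp2d9, Cyp4a32, Cyp7a1, Cyp7b1, Elovl3, Fasn, Fgfr4, Fmo2, Ghr, Irs2, Lcn2, Nat8f5, Nudt7, Pex11a, Ppara, Pparg, Scarb1, Scd1, Scp2, Serpina6, Slc22a26, Socs2, Srebf1, Stat5b, Trim24, Ugt2b38 and the neighbours Adgrf1, Gm6614 and Pla2g7 were named after their values were seen.

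The fit was tested on simulated data over 21212 probe sets, with normal values drawn independently for each array. Deviations shared between arrays, found in the real data, were left out, so recovery there may differ. For the difference in females it recovered 79.1% of 67 changes of 1.5-fold, 94.0% of 67 of 2-fold and 100% of 66 of 4-fold, and for the interaction 46.3%, 85.1% and 100%. It also called 7 unchanged probe sets for the difference in females and 9 for the interaction. Alternatives were quantile and loess normalization, a filter on low means, a robust prior with an intensity trend, only the brightest probe set of a gene, array weights, the replicate block, the interquartile range as a covariate, only the 6 female arrays, and leaving out each array.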

Additional observations from a re-analysis of the deposited data

Results flagged for a closer look

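For 19 named genes the strain difference itself differed between the sexes by limma's interaction term at an adjusted p under 0.05. Values are the difference in males minus that in females, on the log2 scale, with the SE of the fit. Those of Cyp4a12b (-6.59, SE 0.26), Cyp4a12a (-6.31, SE 0.30) and Hsd3b5 (-3.84, SE 0.56) came from increases in KK females of 7.05, 7.19 and 3.77 against 0.46, 0.88 and -0.06 in males. Mup20 (-1.86, SE 0.26), Cyp2c39 (-1.68, SE 0.26) and Etnppl (-1.10, SE 0.17) were likewise higher by more in females, by 1.96, 3.79 and 1.26 against 0.10, 2.10 and 0.16. For Cyp4a14 (-4.33, SE 0.54) and Cyp4a10 (-2.39, SE 0.28) the decrease was larger in males. Bcl6 (-2.73, SE 0.30) and Cish (1.79, SE 0.26) had opposite signs in the sexes.

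Decreases in KK females were larger than in males for Cyp2b13 (5.08, SE 0.49), Cyp2a22 (3.09, SE 0.31), Cyp17a1 (2.96, SE 0.49), Atp6v0d2 (2.51, SE 0.14), Glt1d1 (1.73, SE 0.25), Serpina1d (1.66, SE 0.24) and Car3 (0.64, SE 0.09). Serpina1d still differed by -1.70 in males, Glt1d1 by -1.34 and Car3 by 0.03. Moxd1 (3.40, SE 0.41) and Mogat1 (0.996, SE 0.15) rose by more in males, by 3.35 and 1.96.

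The call ended without some single arrays for Cyp2c39 (adjusted p up to 0.0986, KK male 1 or 2, any C57BL/6J female or C57BL/6J male 2), Etnppl (up to 0.0824, C57BL/6J male 2, KK female 1 or 3, KK male 1 or 2) and Mogat1 (up to 0.0613, C57BL/6J male 2 or 3, KK female 1 or 3, KK male 1). It also ended for Serpina1d (up to 0.0603, KK male 2, C57BL/6J male 3, C57BL/6J female 3), Glt1d1 (up to 0.0549, C57BL/6J male 2 or 3, KK male 1), Mup20 (up to 0.0533, C57BL/6J male 2 or 3, KK male 1 or 2) and Car3 (0.0507, C57BL/6J male 2). Hsd3b5 was lost without KK male 1 or 2, C57BL/6J male 2 or 3 or C57BL/6J female 3 (up to 0.066), Cish without C57BL/6J male 2 or 3, KK female 1 or KK male 2 (up to 0.0714), and Cyp17a1 without any array except C57BL/6J male 1 (up to 0.144). No group of 3 arrays was tested for single arrays that stand apart.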

How the results depend on the processing

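The number of probe sets called between the female groups was 1378, with 675 higher and 703 lower in KK. The larger part was higher instead after quantile normalization (875 against 802), after loess (857 against 784), with array weights (1006 against 899), without C57BL/6J female 3 (500 against 432) and without KK female 2 (546 against 470). The count moved by over 1.5 times when a covariate for each array's interquartile range was added (2329 calls, 1102 higher and 1227 lower), and fell to 591 (290 higher and 301 lower) without both KK female 1 and C57BL/6J female 3, an alternative chosen after seeing the data. Without any one array it ranged from 905 (without KK female 1) to 1412, with 402 (without C57BL/6J female 2) to 703 higher and 432 (without C57BL/6J female 3) to 709 lower. The 30 interaction calls became 77 with array weights, 14 without both arrays, and 19 (without C57BL/6J male 3 or KK male 2) to 35 without any one. The cause of these shifts was not tested. The count at least 2-fold kept within 1.5 times throughout. Deviations from the group means correlated between the female groups at -0.03, 0.43 and 0.13 for replicate numbers 1, 2 and 3. For unlike numbers they ran from -0.49 (KK female 2, C57BL/6J female 3) to 0.40 (KK female 1, C57BL/6J female 3). The numbers thus gave no clear pairing, but some arrays shared deviations, of which the source was not tested. With the replicate block 1765 probe sets were called, 1361 of the 1378 among them, and 41 interactions. With only the 6 female arrays 950 were called. Of 167 named genes called in females, 111 stayed called without any one array and 125 under each other alternative that tested them. The number of arrays, 3 per group, limits precision, and probe sets near the level of Y-linked genes in females cannot show a decrease.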
